A study of Mus musculus with 4 samples.

Results

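Early lymphoid priming describes the low expression of lymphoid genes in multipotent blood progenitors before they commit to the B or T lineage. The 10 genes described here were Flt3, Il7r, Ccr9, Dntt, Rag1, Rag2, Ikzf1, Satb1, Sox4 and Tespa1, out of 18193 genes named on the arrays. They were taken by gene symbol, with all 31 probe sets that name 1 of these genes and no other. A probe set is a group of short probes for the same transcript. RNA was measured on 4 Affymetrix arrays, with 1 array for LSK cells and 1 for MP cells of each genotype, wild-type and Fbw7-deficient. LSK cells carry Kit and Sca1 but no lineage markers, and hold the stem cells along with multipotent progenitors. The MP gate holds Kit-positive myeloid progenitors without Sca1, and it served as the reference for LSK-enriched genes. Animals of both genotypes received 3 doses of polyI:C, an RNA mimic that induces interferon, at 20 ug per g, and marrow was taken 2 weeks afterwards. Each genotype was a pool of 3 mice made ahead of sorting, and its LSK and MP arrays therefore share their animals. The sources used here do not give the allele, the means of deletion, the strain or the age of the mice. Fbw7, the product of Fbxw7, is the substrate-binding part of a ubiquitin ligase.

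In multipotent progenitors, the cytokine receptors FLT3 and IL-7 receptor carry the signals for lymphoid development, and factors such as Ikaros and SATB1 open the lymphoid programme. The recombinase made by Rag1 and Rag2 later cuts the antigen receptor genes, and terminal transferase, made by Dntt, adds bases at the joins. Transcripts of some of these genes are known to be present in the LSK gate, where the lymphoid-primed progenitors with high FLT3 lie.

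Intensities are on a linear scale and were taken to log2 for differences. The median intensity ranged from 155 to 159 over the 4 arrays. With 1 array per group, no test was possible and no error between replicates can be given, so a difference below is between 2 arrays and not between genotypes at large. As a measure of technical spread alone, probe sets of the same gene differed from each other with an SD of 0.27 log2 units in the LSK genotype difference and 0.24 in the MP genotype difference (5279 genes with more than 1 probe set). A gene was called at 2-fold, and a level filter kept genes that reached the overall median intensity of 157 on at least 1 array. A value under 157 is not shown to be above background, and folds from such values are approximate. Kit, which defines both gates, read 6723 and 5313 on the wild-type and Fbw7-deficient LSK arrays, and 6510 and 4190 in MP. In the same order, Ptprc read 13219, 10362, 8811 and 5608. Cd34 read 12745 and 8783 in LSK, and 6491 and 1103 in MP, so the 2 MP arrays differed widely in it. No value was available for Ly6a, the gene of Sca1, which separates the gates. The part of these gaps in the members' differences was not tested. Between the wild-type arrays, 8 of 9 stem cell markers were at least 2-fold higher in LSK, against 5.05% of all genes. In the same comparison, 6 of 9 granulocyte-monocyte progenitor markers were at least 2-fold lower in LSK, against 2.40% of all genes. Both lie in the direction the labels give. Fbxw7 read 1355 and 1103 on the wild-type and Fbw7-deficient LSK arrays, and 691 and 958 on the MP arrays; the sources used here do not give the deleted part of the gene, so these values do not check the genotype labels.

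Promoter stretches are shown for 4 members that mark the contrasts below: Rag1 and Rag2, which lie next to each other but read differently, Dntt, with the widest gap between populations, and Flt3, the defining receptor of lymphoid-primed progenitors. RefSeq (GRCm38.p6) gave starts for 9 of the 10 genes, and none was held for Tespa1. Each stretch is the 150 bases before the start, written 5′ to 3′ on the gene's strand. Capitals mark matches, on either strand, to the Ikaros core TGGGAA, the E-box of E2A type CAGGTG, the PU.1 core GAGGAA, the RUNX core TGTGGT or the TATA box TATAAA. The Rag1 stretch is chr2:101649533-101649682 on the minus strand, the Rag2 stretch chr2:101624562-101624711 on the plus strand, the Dntt stretch chr19:41029125-41029274 on the plus strand and the Flt3 stretch chr5:147400490-147400639 on the minus strand.
Rag1: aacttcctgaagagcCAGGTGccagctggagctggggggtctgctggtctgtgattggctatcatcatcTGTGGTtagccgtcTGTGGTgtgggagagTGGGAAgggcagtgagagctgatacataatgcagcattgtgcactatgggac
Rag2: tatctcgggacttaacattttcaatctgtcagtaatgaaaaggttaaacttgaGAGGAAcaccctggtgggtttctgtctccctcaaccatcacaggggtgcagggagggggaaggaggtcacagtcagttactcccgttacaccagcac
Dntt: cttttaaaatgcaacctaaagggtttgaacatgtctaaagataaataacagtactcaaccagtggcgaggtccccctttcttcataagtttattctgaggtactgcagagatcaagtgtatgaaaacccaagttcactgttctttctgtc
Flt3: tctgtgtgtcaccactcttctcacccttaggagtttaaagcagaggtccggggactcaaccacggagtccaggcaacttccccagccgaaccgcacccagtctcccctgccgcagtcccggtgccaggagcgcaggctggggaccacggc
The Rag1 stretch held 1 E-box, 2 RUNX cores and 1 Ikaros core, the Rag2 stretch 1 PU.1 core, and the Dntt and Flt3 stretches none of these letters. Among 32851 stretches of the same length, 13.1% held the Ikaros core, 10.6% the E-box, 14.5% the PU.1 core, 8.40% the RUNX core and 7.57% the TATA box. Over the 14 starts of the members, 3 held the Ikaros core, 2 the E-box, 3 the PU.1 core, 1 the RUNX core and 0 the TATA box. Such matches are descriptions of the sequence and not binding sites.

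Most of the early lymphoid genes read lower on the Fbw7-deficient MP array than on the wild-type one, and between the LSK arrays Rag1 alone of the members differed by 2-fold. In MP, 6 of the 9 members past the level filter lay 2-fold or more below wild-type, namely Flt3, Dntt, Rag1, Satb1, Sox4 and Tespa1, against 1.49% of all 12239 genes. No member was 2-fold higher in MP, where 0.825% of all genes were. The members were chosen with earlier results of these data known, so their counts beside all genes are descriptions and test nothing. The members' median log2 difference in MP was -1.24, beside 0.00 for all genes. In LSK, 1 member, Rag1, was at least 2-fold higher and none 2-fold lower, against 1.79% and 1.95% of all genes, and the median was -0.20 beside 0.00, or 0.01 with the mean of all probe sets. With the mean of all probe sets in place of the brightest, 3 members were 2-fold lower in MP, against 0.952% of all genes so summarised. The members' median was then -0.90. The 3 were Flt3, Rag1 and Tespa1 (log2 -1.05). Flt3 and Rag1 have 1 probe set each, so this summary could not change them. Dntt, Satb1 and Sox4 fell short of 2-fold by it. Whether fewer lymphoid-primed cells in a gate or less RNA per cell lie behind a lower value cannot be told apart in sorted bulk RNA.

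**Figure D1:**
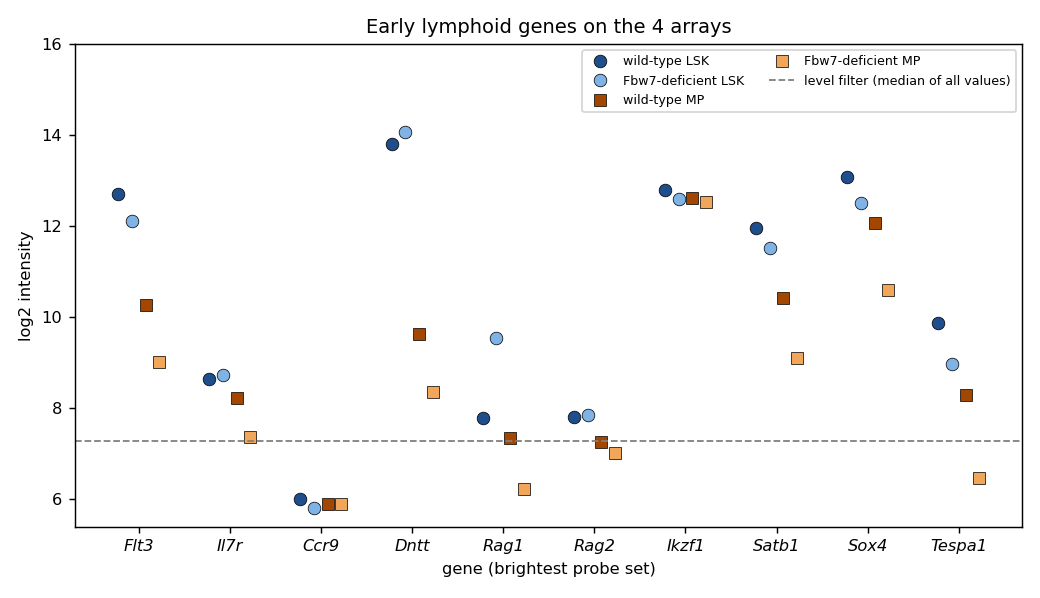
Log2 intensity of the brightest probe set of each of the 10 genes (x axis) on the 4 arrays, 1 point per array, with the level filter as a dashed line. Fbw7-deficient MP is the lowest array for all 9 genes that pass the filter, by little for Ikzf1, while Ccr9 lies under the line on all arrays; heights are comparable between arrays of a gene and not between genes.

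Among the receptors, Flt3 was lower in the Fbw7-deficient array of both populations, Il7r was nearly level in LSK and lower in MP, and Ccr9 was not above the filter. Flt3, which encodes the receptor for FLT3 ligand, read 6679 in LSK of wild-type mice and 4433 in Fbw7-deficient ones, and 1229 and 521 in their MP cells. Both LSK arrays thus lay above both MP arrays, and the Fbw7-deficient array was the lower one in each population. The log2 genotype difference was -0.59 in LSK (1.51-fold lower) and -1.24 in MP (2.36-fold lower). Only 1 probe set reports Flt3, so no second reading of it exists on these arrays. Il7r, the alpha chain of the IL-7 receptor, read 399 and 424 in wild-type and Fbw7-deficient LSK and 299 and 166 in the MP arrays. The LSK arrays were nearly level (log2 0.09, within the spread of probe sets), and Fbw7-deficient MP was 1.80-fold lower than wild-type MP, short of 2-fold. The second Il7r probe set stayed under the level filter, at 69.3 to 138, with log2 differences of 0.13 in LSK and -0.26 in MP. Ccr9, a chemokine receptor of thymus-homing progenitors, had 5 probe sets between 28.8 and 92.4 on all arrays. None reached the filter, so no genotype or population difference of Ccr9 was measurable here.

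The genes of antigen receptor recombination showed the widest range. Dntt read 14365 (wild-type) and 17155 (Fbw7-deficient) in LSK, and 794 and 329 in MP, on its brightest probe set, of a kind marked as cross-reacting. The LSK arrays lay far above the MP arrays, by 18.1-fold for wild-type and 52.1-fold for Fbw7-deficient cells. Among the 12239 genes, the Fbw7-deficient gap of Dntt was the largest in the higher direction, and the wild-type gap was number 6. In LSK the genotype difference was small (log2 0.26), and in MP Dntt was 2.41-fold lower. A second bright probe set read 6619 and 10079 in LSK and 399.9 and 165 in MP. It gave a log2 genotype difference of 0.61 in LSK and -1.28 in MP. The third, a dim one in MP, read 729, 666, 66.1 and 57.4, with differences of -0.13 and -0.20. The LSK direction of Dntt therefore differed between its probe sets, while all 3 were lower in Fbw7-deficient MP. The third lay below the filter on both MP arrays.

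Rag1, the catalytic part of the recombinase, read 221 (wild-type) and 749 (Fbw7-deficient) on the LSK arrays, against 162 and 74.5 in MP. It was the single member past 2-fold in LSK, at 3.39-fold higher, number 70 from the highest of 12239 genes, and was 2.18-fold lower in MP. The Fbw7-deficient MP value lay under the level filter, so the size of that difference is uncertain, and with 32 added to every intensity it was log2 -0.87, short of 2-fold. Rag1 is reported by 1 probe set. Rag2, the accessory part of the recombinase, read 225, 232, 154 and 130.3. Its differences were 0.04 in LSK and -0.24 in MP, close to the spread of probe sets, and both MP values lay under the filter. Rag1 and Rag2 are separated by 5723 bases on chromosome 2 (Rag2 at 101624712 to 101632528 and Rag1 at 101638252 to 101649532 in GRCm38.p6). Of this neighbouring pair, Rag1 read higher in Fbw7-deficient LSK and Rag2 read nearly level.

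Of the regulators, Ikzf1, which encodes Ikaros, was the most even member. Its brighter probe set read 7139, 6235, 6324 and 5949 in the order LSK wild-type and Fbw7-deficient, then MP wild-type and Fbw7-deficient. The genotype difference was -0.20 in LSK and -0.09 in MP, within the spread of probe sets, and the dimmer probe set gave 0.21 and 0.12 in the other direction; the mean of both was at 0.01 and 0.02. Satb1, a chromatin organiser of lymphoid progenitors, read 3993, 2936, 1365 and 551 on its brightest probe set. LSK arrays lay above MP arrays and wild-type above Fbw7-deficient in both populations, with log2 differences of -0.44 in LSK and -1.31 in MP. Of the 4 Satb1 probe sets past the filter, all 4 were below 0 in both populations, and 3 were at least 2-fold lower in MP. Sox4, a SOX-family factor used in B and T progenitors, read 8668, 5837, 4282 and 1552 on its brightest probe set, a log2 difference of -0.57 in LSK and -1.46 in MP. The other Sox4 probe sets gave smaller differences. In LSK, 3 of 7 past the filter were lower and 4 higher. In MP, of 7 past the filter, 6 were lower in Fbw7-deficient MP, but 1 by 2-fold. The next brightest read 3354, 2670, 1197 and 754 (log2 -0.33 and -0.67) and 3127, 2577, 1356 and 908 (log2 -0.28 and -0.58), so the order of the arrays held and the size did not. The 3 dimmest of the 7, at 140.2 to 251, differed by at most 0.18 between genotypes. With the mean of all probe sets of a gene, Sox4 was at -0.12 and Satb1 at -0.14 in LSK, within the spread of probe sets. This mean takes in probe sets under the filter, of which the Satb1 one was at 0.42 in LSK. By the same summary, Sox4 was at -0.39, Satb1 at -0.90 and Dntt at -0.92 in MP, all short of 2-fold. Dntt was at -0.20 there on its dim probe set.

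Tespa1, which encodes a protein of T cell receptor signalling and thymocyte development, had the lowest MP difference of the members. On the LSK arrays it read 943 (wild-type) and 501 (Fbw7-deficient), and 311 and 88.7 in MP. The Fbw7-deficient array was lower in both populations, by 1.88-fold in LSK and 3.51-fold in MP, the latter number 22 from the lowest of 12239 genes. The Fbw7-deficient MP value lay under the filter. Its other probe sets read 387, 237, 196 and 119.7, and 194, 141, 167 and 109, with MP differences of -0.71 and -0.62 and LSK differences of -0.71 and -0.46. All 3 probe sets were thus lower in both populations, and 1 passed 2-fold in MP.

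**Figure D2:**
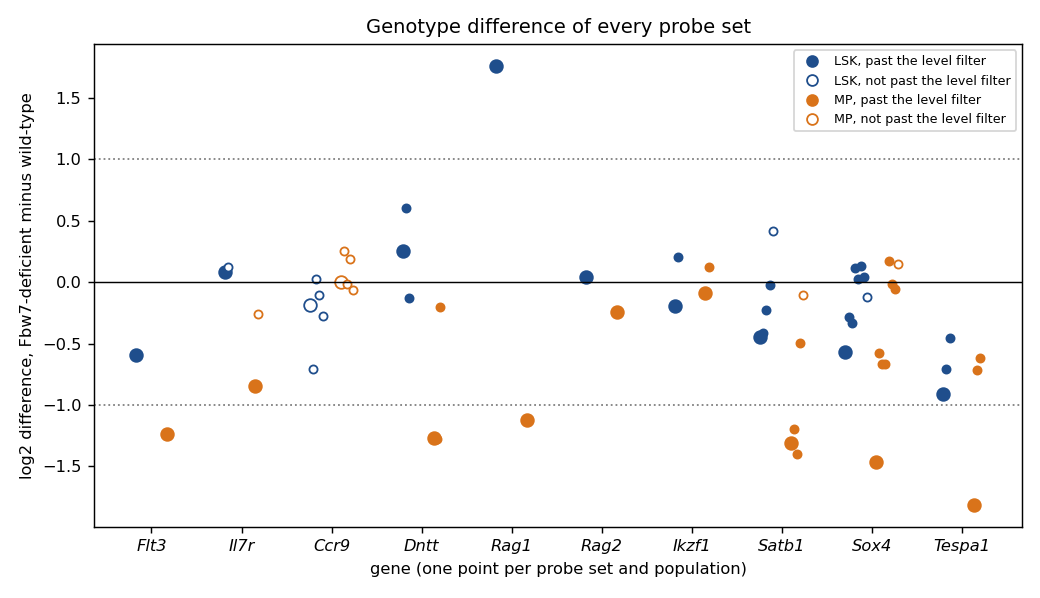
Log2 difference of Fbw7-deficient minus wild-type (y axis) for each of the 31 probe sets of the 10 genes, in LSK (blue) and MP (orange), with larger points for the brightest probe set and open points for probe sets that did not pass the level filter; dotted lines mark 2-fold. Of the 23 probe sets past the filter, 21 lie below 0 in MP and 13 in LSK, beside 50.4% and 49.2% of all genes. Rag1 in LSK stands above the upper dotted line.

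Probe set by probe set, 21 of the 23 that passed the filter were lower in Fbw7-deficient MP, 9 of them by 2-fold. In LSK 13 were lower and 10 higher. Of all genes on their brightest probe sets, 50.4% were below 0 in MP, 1.49% by 2-fold, and 49.2% in LSK. No share over all probe sets was computed. Their median log2 difference was -0.67 in MP and -0.13 in LSK. The 2 probe sets above 0 in MP were the dimmer one of Ikzf1 (0.12) and a dim one of Sox4 (0.18). Probe sets of 1 gene share their arrays and are not replicates. The remaining 8 probe sets, 5 of Ccr9 and 1 each of Il7r, Satb1 and Sox4, stayed under the filter on all arrays.

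The wild-type LSK array was compared with wild-type MP, which served as the control for LSK-enriched genes. All 9 members past the filter were higher in LSK, as were 48.0% of all genes. Rag2 reached the filter on its LSK arrays alone, so its direction here was set by the filter. At least 2-fold higher were 5 members, against 5.05% of all genes, and none was 2-fold lower, against 2.40%. The members' median was 1.02, beside -0.02 for all genes. Flt3 was 5.43-fold higher in LSK, Tespa1 3.03-fold, Satb1 2.93-fold and Sox4 2.02-fold, with Dntt as above. Il7r (1.33-fold), Rag1 (1.36-fold), Rag2 (1.46-fold) and Ikzf1 (1.13-fold) lay short of 2-fold. With the mean of all probe sets, 3 members were called here, against 3.53% of all genes. Between the Fbw7-deficient arrays, 7 members were at least 2-fold higher in LSK, against 3.86% of all genes, and none 2-fold lower, against 1.63%. Beside the 5 genes above, these were Rag1 (log2 3.33) and Il7r (log2 1.35). This comparison and the genotype comparisons share arrays, so a value on 1 array, such as the low Fbw7-deficient MP one, enters several of them.

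The genotype difference in LSK minus that in MP shows where the populations differ. It was above 0 for 8 of 9 members, against 6121 of all 12239 genes, and below 0 for Ikzf1 (-0.11). This difference had a median of 0.89 over the members, beside 0.00 for all genes. It was at least 2-fold for Rag1 (log2 2.88) and Dntt (log2 1.53), against 2.20% of all genes in that direction, and for no member in the other, against 1.32%. Tespa1 (0.90), Sox4 (0.89), Satb1 (0.86), Il7r (0.93) and Flt3 (0.65) were between 1.5-fold and 2-fold on their brightest probe sets. With the mean of all probe sets, Tespa1 was at 0.36 and Sox4 at 0.27, and the other Tespa1 probe sets gave 0.01 and 0.16. With Dntt read on its dim probe set, the value for Dntt was 0.07. No test of these differences was possible with single arrays. In 4 members, Rag1, Dntt, Il7r and Rag2, the LSK and MP genotype differences had opposite signs, as they did for 37.4% of all genes.

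**Figure D3:**
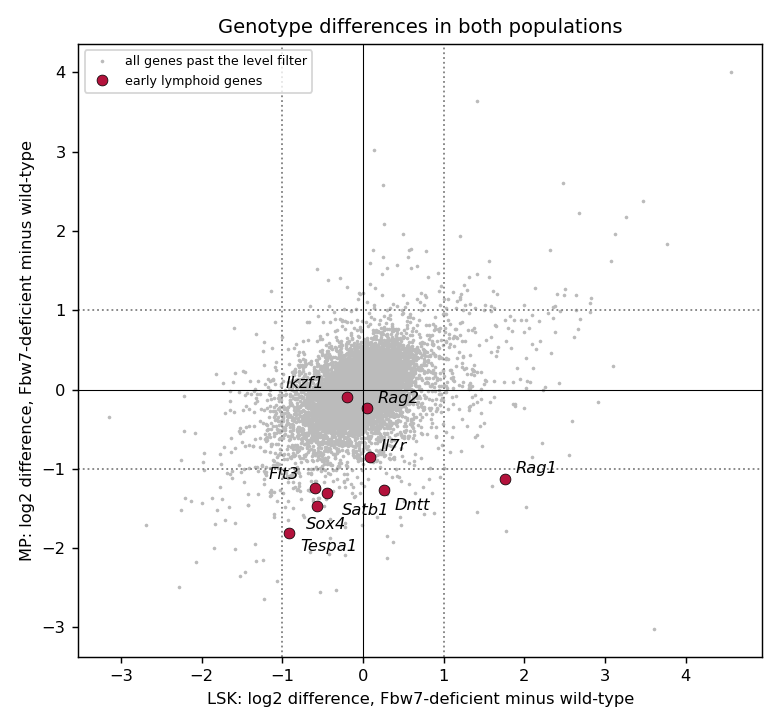
Log2 difference of Fbw7-deficient minus wild-type in LSK (x axis) and in MP (y axis) for the 12239 genes past the level filter (grey) and 9 early lymphoid genes (red); dotted lines mark 2-fold. Flt3, Satb1, Sox4, Tespa1 and Dntt lie below the lower dotted line, and Rag1 lies to the lower right, at 1.76 in LSK and -1.12 in MP.

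Other genes of the pathway were read from lists chosen by role that hold no member. These lists, and the marker lists below, were chosen with earlier results of these data known. Of the pathway genes, 65 passed the filter. Of these, 9 were at least 2-fold lower and 1 higher in Fbw7-deficient MP, against 1.49% and 0.825% of all genes. In LSK 2 were higher and 2 lower, against 1.79% and 1.95%. The median was -0.13 in both populations. Of all genes, 50.4% were below 0 in MP and 49.2% in LSK. These shares are also the background for the list and marker counts that follow. Among lymphoid transcription regulators, 3 of 23 were 2-fold lower in MP: Irf8, a factor of myeloid, dendritic and B cells (9804 to 3318), the zinc finger factor Zeb2 (3265 to 1496) and Mef2c (2927 to 1407). In LSK, Gata3, a T lineage factor, went from 225 to 79.9 and Ebf1, a B lineage factor, from 94.8 to 220. Each of these genes reached the filter only on the array where it read higher, so their folds are approximate. Among surface and signalling genes, 11 of 11 were below 0 in MP and 4 were 2-fold lower. The B cell adaptor gene Blnk read 404 and 174 in the MP arrays, Emb 8379 and 3658, and Selplg, the gene of the P-selectin ligand, 5255 and 2510. The fourth was Cd27, at 1112 and 552 (log2 -1.01), a TNF receptor family gene named after its value was seen. In LSK, Blnk was higher instead, at 319 and 969, like Rag1.

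Ligands and signalling partners of the FLT3, IL-7 and CCR9 receptors had a median of 0.06 in MP. Of 10 genes, 6 were above 0 and 1 was 2-fold lower in MP, the survival gene Bcl2 (2782 to 864, log2 -1.69), which acts downstream of IL-7. In LSK, 9 of the 10 were below 0, none of them past 2-fold, and the median was -0.20. Of 9 genes of DNA end joining, synthesis and binding that act with the recombinase, 1 was 2-fold apart in MP, Xrcc5, which encodes the Ku80 end-binding protein (403 to 838), and none in LSK. Among 12 relatives of the members, 1 was 2-fold lower in each population. These were Ikzf2, which encodes Helios of the Ikaros family, in LSK (5082 to 2102) and Csf1r, a receptor kinase of the same class as FLT3, in MP (5624 to 2410). The other Ikaros relatives that passed the filter, Ikzf4 and Ikzf5, lay between -0.27 and 0.05 in both populations.

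Markers of other cell types differed between the arrays as well. B cell markers were measured for 11 of 12 listed genes. Their summed intensity was 3641 for wild-type and 5183 for Fbw7-deficient LSK, and 4288 and 2740 for MP. In LSK 8 of 11 were above 0 and 2 at least 2-fold higher, Blnk and Ebf1. Ebf1 reached the filter on the Fbw7-deficient LSK array alone. In MP 10 of 11 were below 0 and 3 at least 2-fold lower, Vpreb1 (655 to 266), Blnk and Ms4a1 (272 to 120.3). The highest and the lowest array for this sum were those for Rag1, and also for Il7r, Dntt and Rag2 on their brightest probe sets. Dendritic cell markers (11 of 12 listed) summed to 12431, 13436, 14954 and 6147, of which Irf8 alone gave 4955, 8366, 9804 and 3318. In MP, 8 of the 8 past the filter were below 0, 4 of them by 2-fold. In LSK 2 were 2-fold lower, H2-Ab1 and H2-Aa. In MP, H2-Aa (895 to 294), Irf8 and H2-Ab1 (1248 to 500.2) were the lowest. The defining plasmacytoid and cross-presenting markers Siglech and Xcr1 lay under the filter on all arrays. T and NK cell markers (11 of 12 listed) summed to 6595 and 6853 on the LSK arrays and to 11018 and 12480 on the MP arrays, led by Nkg7, at 5058 to 10918. None of the 5 past the filter was 2-fold apart between genotypes, and Cd3d, Cd3g, Cd8b1, Cd5, Cd2 and Ncr1 were under the filter on all arrays. The part of these cell types in the members' differences was not tested.

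Myeloid, erythroid and stem cell markers differed between the LSK arrays. The granulocyte-monocyte progenitor list (9 of 10 measured) summed to 67325 for wild-type and 124323 for Fbw7-deficient LSK, and to 154947 and 154788 in the MP arrays. In LSK 4 of 9 were at least 2-fold higher, including Elane, Ms4a3 and Fcnb. The erythroid list (8 of 10 measured) summed to 5755 and 21604 in LSK and to 16401 and 34161 in MP, and 5 of 7 past the filter in LSK and 3 of 7 in MP were 2-fold higher, led by Epb42, Slc4a1 and Rhag. The stem cell list (9 of 10 measured) summed to 20662 and 7986 in LSK and to 3236 and 2436 in MP, with 6 of 9 at least 2-fold lower in LSK, among them Hlf, Mecom and Meis1, and 1 in MP, Meis1. On their brightest probe sets, Flt3, Satb1, Sox4 and Tespa1 were 1.36-fold to 1.88-fold lower in Fbw7-deficient LSK. By the mean of all probe sets, Sox4 and Satb1 were less so, as given above. Dntt was higher in Fbw7-deficient LSK on its 2 brighter probe sets and lower on its dim one (log2 -0.13). How far the mix of cells in the gates enters these values was not tested.

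**Figure D4:**
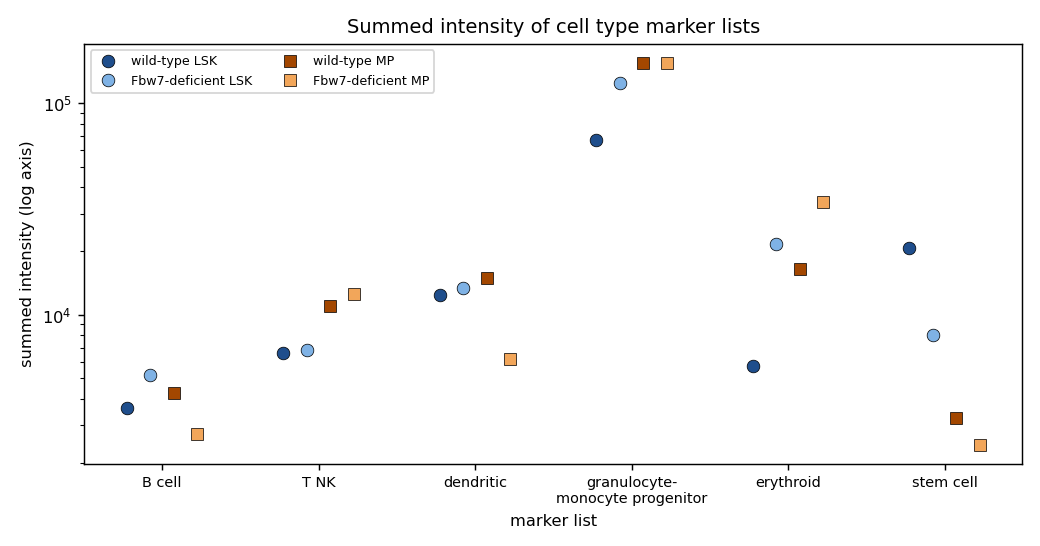
Summed intensity (log axis) of 6 cell type marker lists on the 4 arrays, 1 point per array. B cell and dendritic sums are lowest in Fbw7-deficient MP (2740 and 6147), with Irf8 the largest part of the dendritic sum. Erythroid sums are higher in Fbw7-deficient cells of both populations, and the stem cell sum is highest in wild-type LSK (20662).

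The arrays also differed in technical measures. For Gapdh, the signal near the 3′ end divided by that near the 5′ end, which grows as RNA shortens or amplification weakens, was 4.30 on the wild-type LSK array and 2.60 to 2.95 on the others. Poly-A control RNAs (24 probe sets) were lower in Fbw7-deficient than in wild-type MP, by a median of -0.68 in log2, and at -0.04 in LSK. Hybridisation controls (18 probe sets) were at -0.07 in MP and -0.05 in LSK. The part of these in the members' differences was not tested.

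Genes with the most similar profile over the 4 arrays were found by the root mean square distance between log2 values, each gene less its own mean, among 1824 genes that spanned at least 1 log2 unit. Nearest to Flt3 were Clcf1, Adgrl4, Gem, Snn and P2ry14, at distances of 0.05 to 0.16. Adgrl4 read 16643, 10843, 3464 and 1327 beside the 6679, 4433, 1229 and 521 of Flt3. Nearest to Il7r were Plekho1, Snx30, Klrd1, Bok and Nipbl (0.05 to 0.10), to Satb1 Abcb1b, Aff3, Grasp, Map4k4 and Mndal (0.05 to 0.17) and to Tespa1 Abcb1b, Afap1l1, Bpifc, Hdac9 and Pde4b (0.21 to 0.25). Dntt had no close profile: the nearest were Vldlr, Gimap8, 1810073O08Rik, Pglyrp2 and Ndn, at 0.60 to 0.87. Between members, Satb1 lay at 0.25 from Tespa1, 0.27 from Sox4 and 0.40 from Flt3, whereas Dntt lay at 1.13 or more from every other member past the filter. A profile of 4 arrays holds few points, and many genes share one by their population gap alone.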

How the data were processed

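The deposited values are linear intensities of probe sets, made with RMA per the submitters' processing notes; the sources used here do not give its version or settings. Per the labels' protocols, 20 ng of total RNA was amplified in a double cDNA synthesis, which favours 3′ sequence. RMA makes the arrays' distributions alike and compresses dim differences, so shifts shared by most genes are not seen. The platform annotation names 1 gene for 34945 of 45101 probe sets, several for 932 and none for 9224, controls included; 34741 symbols were looked up by gene ID in RefSeq (GRCm38.p6). The brightest probe set by mean log2 stood for each gene (python 3.11.15, pandas 2.3.3, numpy 2.4.6). Groups came from sample titles. With 1 array per group no test was run, and differences are of log2 values, called at 2-fold; procedures were tested on simulated data. The number of arrays limits the precision. Alternatives were other probe set summaries, scalings, level filters, an added 32 and a 1.5-fold threshold. Named are all members, up to 3 genes past 2-fold per list and genotype comparison, and the 5 nearest profiles of 5 members. Members and lists were chosen with earlier results of these data known.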

Additional observations from a re-analysis of the deposited data

Results flagged for a closer look

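In 4 of the 9 members past the filter, as in 37.4% of all genes, the genotype difference had one sign in LSK and the other in MP, which was not tested, since each group holds 1 array. The log2 genotype difference of LSK minus that of MP was 2.88 for Rag1, 1.53 for Dntt, 0.93 for Il7r and 0.28 for Rag2. On the brightest probe set of each, the Fbw7-deficient array was the higher one in LSK and the lower one in MP. On the dim Dntt probe set it was the lower one in both (-0.13 and -0.20). In LSK, the differences of Il7r (0.09), Rag2 (0.04) and Dntt (0.26) lay within the technical spread between probe sets of a gene (SD 0.27).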

How the results depend on the processing

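No paired analysis was possible because each group holds a single replicate, and no replicate could be left out for the same reason. With the mean of all probe sets, 3 members were 2-fold lower between the MP genotypes (0.952% of all genes). By the same summary, 3 were 2-fold higher in LSK between the wild-type populations (3.53%). The members' medians were -0.90 and 0.56, in that order, and 1.28 between the Fbw7-deficient populations. Flt3, Rag1 and Rag2 have 1 probe set each, so this summary could not change their values. Without probe sets of the kinds that can cross-react or report several transcripts, 1 member, Rag1, was at least 2-fold apart between the populations' genotype differences. It was higher, as were 2.35% of all genes in that setting, while 1.23% were lower. At 1.5-fold in place of 2-fold, 3 members were apart in the LSK genotype comparison, 1 higher (551 of 12239 genes in all) and 2 lower (867), and 7 in the difference of differences, all higher (695). For each cause beyond the alternative's own construction, the cause was not tested. Over 350 values of single members under other settings, 9 lost their 2-fold call and none gained one, 27 moved by at least the SD between probe sets, and 6 changed sign, none of them called: Ikzf1 in both genotype comparisons, Dntt in LSK and Ccr9 in 3 comparisons. Fbw7-deficient MP values of Rag1, Rag2 and Tespa1, and all of Ccr9, lay under the filter.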

Other observations

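Besides Rag1, 5 of the 12239 genes differed 2-fold in opposite directions, higher in LSK and lower in MP of Fbw7-deficient mice. These 5 were named after their values were seen. The Fbw7-deficient MP value of Rag1 lay under the filter. With 32 added to every intensity, the MP difference of Rag1 was log2 -0.87, short of 2-fold. The immunoglobulin gene Igha (log2 3.61 in LSK and -3.02 in MP) and the joining chain gene Jchain (1.78 and -1.78) belong to antibody-secreting cells. Blnk (1.60 and -1.21) is a B cell receptor adaptor, and Ly86 (1.41 and -1.55) encodes MD-1, a protein of B cells and myeloid cells. The receptor kinase gene Met was at 2.02 and -1.48. Between the wild-type populations (LSK minus MP) Igha was at log2 -4.26 and Jchain at -1.04, whereas Rag1 was slightly higher in LSK (0.44).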
